A study of Rattus norvegicus with 49 samples.

Results

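Transcripts of the Slc25a family, which encodes carriers of the inner mitochondrial membrane, were measured in thyroid tissue of male Sprague Dawley rats after injection of 131I, a beta-emitting iodine isotope that the gland takes up. The members were all genes whose symbol starts with Slc25a, found through the RefSeq accession of the array probe, and 38 of the 15154 genes with a probe met this rule. Where a gene had several probes, the brightest over all arrays was used. The 49 arrays were of the type Sureprint G3 Rat GE 8x60K (Agilent), with 1 colour (Cy3) and total RNA of 1 thyroid on each. Young rats were injected at 5 weeks of age with 131I activities of 0.5 kBq up to 500 kBq in 10-fold steps, adult rats were injected at 17 weeks of age with 50 kBq, and controls were untreated. Young rats given 50 kBq were killed after 3, 6 or 9 months, at 4, 7 and 10 months of age, and those given the other activities after 9 months. Adult rats were killed after 3, 6 or 9 months, at 7, 10 and 13 months of age, and controls at 4, 7, 10 or 13 months. Of the 13 groups, 10 held 4 arrays, and 3 arrays were analysed for young rats given 5 kBq and for the controls of 7 and 13 months.

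Carriers of this family are nuclear-encoded proteins that move nucleotides, phosphate, keto acids, amino acids, cofactors and metal ions across the inner membrane, which is otherwise closed to such solutes. The ADP/ATP carriers export the ATP made by oxidative phosphorylation, and tissues differ in which isoform they use, with Slc25a4 predominating in heart and skeletal muscle and Slc25a5 found in most other tissues. Slc25a16 was first described as an antigen recognised by sera of patients with Graves' disease, an autoimmune disease of the thyroid.

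The 250 bases upstream of the annotated start are shown for 4 members on which the results turn, Slc25a4 and Slc25a5, which were low in the same controls, Slc25a23, which was high there, and Slc25a34, whose group means spanned most. The sequences are from RefSeq on the rat build GRCr8, 5′ to 3′ on the gene's strand, with matches to the searched motifs in capitals. They lie at chr16:52805271-52805520 on the plus strand for Slc25a4, at chrX:120897366-120897615 on the plus strand for Slc25a5, at chr5:159219893-159220142 on the minus strand for Slc25a34 and at chr9:1985366-1985615 on the minus strand for Slc25a23.
Slc25a4: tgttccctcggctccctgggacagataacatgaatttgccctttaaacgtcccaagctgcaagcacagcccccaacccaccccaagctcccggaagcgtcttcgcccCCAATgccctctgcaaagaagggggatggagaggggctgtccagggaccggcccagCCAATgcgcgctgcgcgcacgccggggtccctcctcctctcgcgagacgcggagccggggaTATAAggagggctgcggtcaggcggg
Slc25a5: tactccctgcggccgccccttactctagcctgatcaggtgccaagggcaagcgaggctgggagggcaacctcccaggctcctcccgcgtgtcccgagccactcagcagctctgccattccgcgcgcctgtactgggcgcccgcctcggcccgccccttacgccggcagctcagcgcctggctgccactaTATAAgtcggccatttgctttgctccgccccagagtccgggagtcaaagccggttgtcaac
Slc25a34: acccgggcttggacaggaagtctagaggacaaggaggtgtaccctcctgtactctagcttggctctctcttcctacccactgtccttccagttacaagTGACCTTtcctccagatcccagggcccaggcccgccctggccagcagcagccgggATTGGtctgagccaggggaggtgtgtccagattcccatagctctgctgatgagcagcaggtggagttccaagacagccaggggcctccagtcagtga
Slc25a23: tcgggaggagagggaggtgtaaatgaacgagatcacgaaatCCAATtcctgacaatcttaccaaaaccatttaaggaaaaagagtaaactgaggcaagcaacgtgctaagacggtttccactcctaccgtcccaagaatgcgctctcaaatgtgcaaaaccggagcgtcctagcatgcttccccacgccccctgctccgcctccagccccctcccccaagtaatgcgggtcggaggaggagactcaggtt

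The motifs searched, on both strands, were the CCAAT box, the TATA motif with the letters TATAA, the E box with CACGTG, the site of oestrogen-related receptors with AAGGTCA, the YY1 motif with AAGATGGCG and the NRF1 motif. No searched match overlapped another in the 4 sequences shown. Slc25a4 held CCAAT at 143 and 87 bases and TATAA at 26 bases before its start, and Slc25a5 held TATAA at 61 bases before it. In Slc25a34 the capitals are the reverse complements of AAGGTCA and CCAAT, at 152 and 97 bases, and in Slc25a23 they are CCAAT at 209 bases. Among the 33 members with a promoter in the table, 19 (57.6%) held CCAAT and 4 (12.1%) held TATAA, against 35% and 22.2% of the 21851 protein-coding promoters of the same length. CACGTG was found in 3 members (6.16% of all promoters), AAGGTCA in 1, Slc25a34 (3.3%), the YY1 motif in 1, Slc25a44 (0.732%), and the NRF1 motif in none (5.07%). These matches describe letters only.

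Of the 38 members, 34 passed the filter of 3 arrays with a signal well above background and were tested, and 24 of them were so on all 49. Slc25a15, Slc25a27, Slc25a41 and Slc25a47 were well above background on 2, 0, 0 and 1 arrays and were not tested. Levels are given as log2 of the scanner's processed signal minus the 75th percentile of the same array, so that 0 is a signal at that percentile, and they are compared only within a probe. The tested members comprised 7 carriers of nucleotides and phosphate, 4 of carboxylates and keto acids, 6 of amino acids, 8 of cofactors and acylcarnitines, 2 of iron and 7 with other or no assigned substrates.

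The 75th percentile signal lay between 548 and 2743 on 48 arrays and was 50 on replicate 2 of the young 50 kBq group at 4 months, where 43.1% of spots were well above background, against 69.2% to 82.5% elsewhere. Replicate 3 of that group and replicate 2 of the controls of 7 months went against their label as thyroid. Their mean level over 12 thyrocyte markers was -5.46 and -6.22 relative to the mean of all arrays, with 7 and 8 of the 12 markers well above background, and thyroglobulin (Tg) was at 0.65 and -0.11 there. The values of these 3 arrays are kept in the comparisons, and results are given without them where they change. Replicate 3 of the adult rats at 13 months had a skeletal muscle marker level of -8.55 over 12 markers. In bulk tissue, fewer cells of a type and less RNA per cell cannot be told apart. The arrays were scanned on 3 dates, with 24, 14 and 11 arrays.

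Within groups the tested members had a median SD of 0.41, against 0.43 for all 25284 tested probes, and their group means spanned a median of 1.27 against 1.12, both without the dim array. Slc25a17, a carrier of cofactors in peroxisomes, varied least, with an SD within groups of 0.13 and levels from 1.24 to 1.95 on the 49 arrays. Slc25a34, which has no settled substrate, had the widest span of group means, 3.5, from -4.11 in the controls of 13 months to -0.62 in young rats given 50 kBq at 4 months. Slc25a54 and Slc25a53, which also lack an assigned substrate, had the largest SD within groups, 1.43 and 1.36, and were well above background on 14 and 27 arrays. Slc25a18, a glutamate carrier, followed with an SD of 0.91 and 37 such arrays. These values of single carriers hold all 49 arrays. Without the dim array the span of Slc25a34 was 3.35, and the SD of Slc25a54 and Slc25a53 was 1.3 and 1.26.

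**Figure D1:**
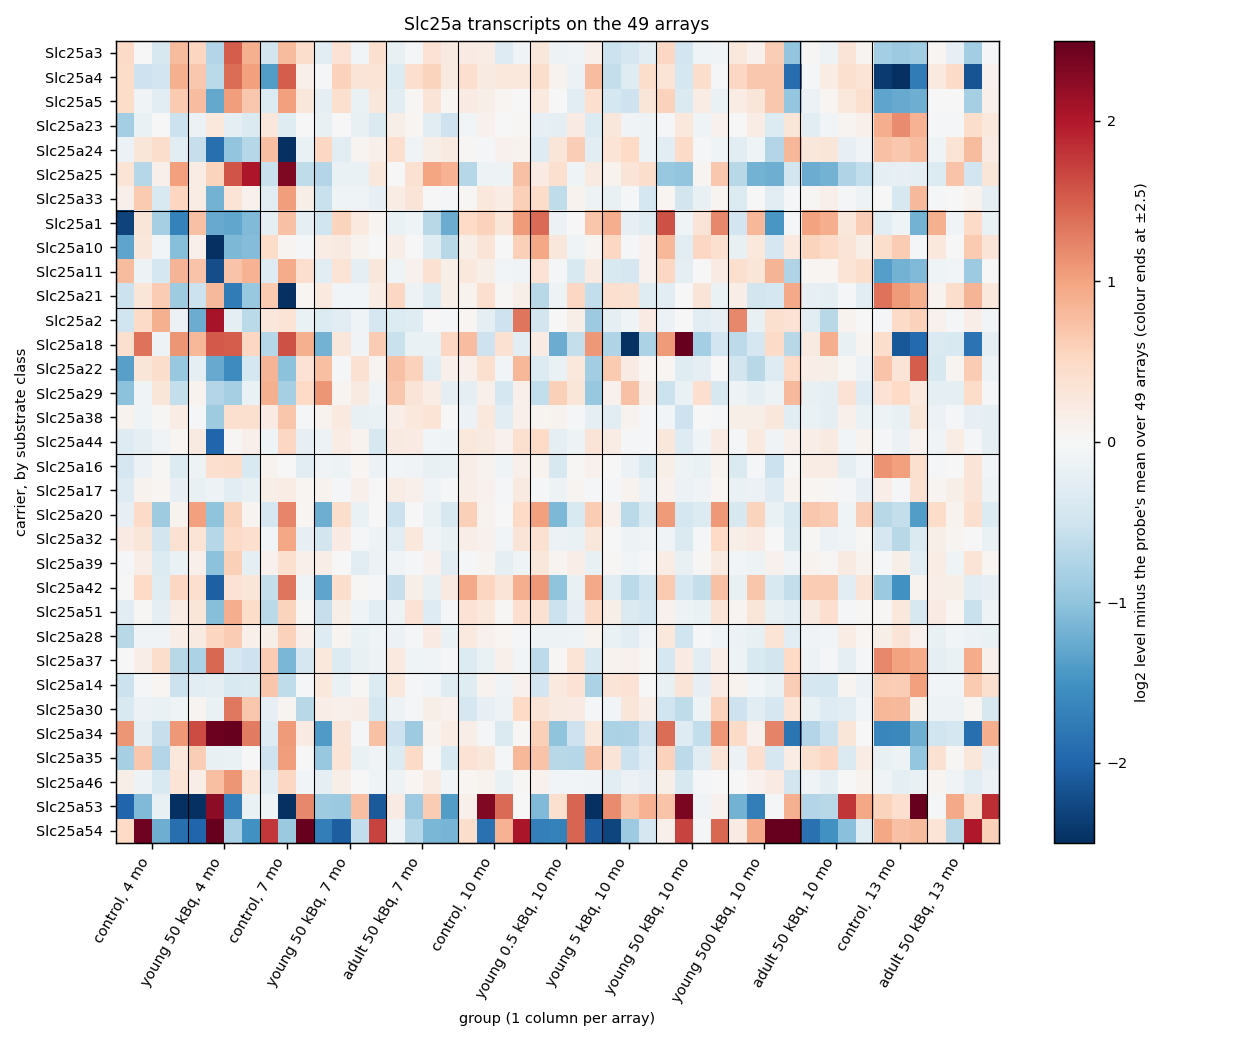
Level of 33 of the 34 tested carriers (vertical axis, by substrate class) on each of the 49 arrays (horizontal axis, by group), as log2 level minus the mean of the probe, with colours ending at ±2.5. The 3 controls of 13 months have the lowest group mean of 9 carriers shown and the highest of 11. The young 50 kBq group at 4 months, which includes the dim array, has the highest of 7 and the lowest of 8. The share of all probes is not given for these counts, so they are not a result about the carriers.

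None of the 34 carriers was called in any of the 9 comparisons of an exposed group with controls of the same age, where a call needs a Benjamini-Hochberg adjusted p below 0.01 from limma and a fold change above 1.5. The share of all tested probes that was called was 0.0119% in young rats given 50 kBq at 4 months, 0% at 7 months and 0.0119% at 10 months. For the other activities in young rats at 10 months, the share was 0% (0.5 kBq), 0.0119% (5 kBq) and 0% (500 kBq). In adult rats it was 0% at 7 months, 0% at 10 months and 0.657% at 13 months. At an unadjusted p below 0.05, limma gave 6, 1, 0, 0, 2, 1, 1, 0 and 11 of the 34 carriers in the same order of comparisons, against 37%, 6.71%, 1.38%, 0.977%, 1.91%, 1.7%, 4.49%, 0.803% and 21.8% of all probes. At a limma adjusted p below 0.05 there were 4 carriers in young rats given 50 kBq at 4 months (16.4% of all probes), 3 in adult rats at 13 months (4.83%) and none in the other 7 comparisons, including adult rats at 7 months (0.0158%). The 5 comparisons at 10 months share 4 control arrays and the pair at 7 months shares 3.

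More carriers were lower than higher in 8 of the 9 comparisons, without a call. In the young rats at 10 months, the carriers below the controls numbered 27 of 34 with 0.5 kBq, 26 with 5 kBq, 22 with 50 kBq and 24 with 500 kBq, and the medians were -0.12, -0.21, -0.08 and -0.16 on the log2 scale. The medians of all tested probes were 0.006, -0.016, 0.012 and 0.044, and 51.2%, 47.8%, 52.1% and 57.5% of them were higher than in the controls. In the adult rats 25, 22 and 19 carriers were lower at 7, 10 and 13 months, with medians of -0.15, -0.09 and -0.05, against -0.076, 0.024 and -0.118 for all probes. Of all probes 39.9%, 54.3% and 42% were higher there. In the young rats given 50 kBq 27 were lower at 7 months, with a median of -0.21 against -0.097 for all probes, and 16 at 4 months, with 0.07 against 0.23. Of all probes 38.9% and 61.4% were higher in these 2 comparisons. The comparisons at 10 months share their controls, as do those at 7 months, so the counts are not independent.

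**Figure D2:**
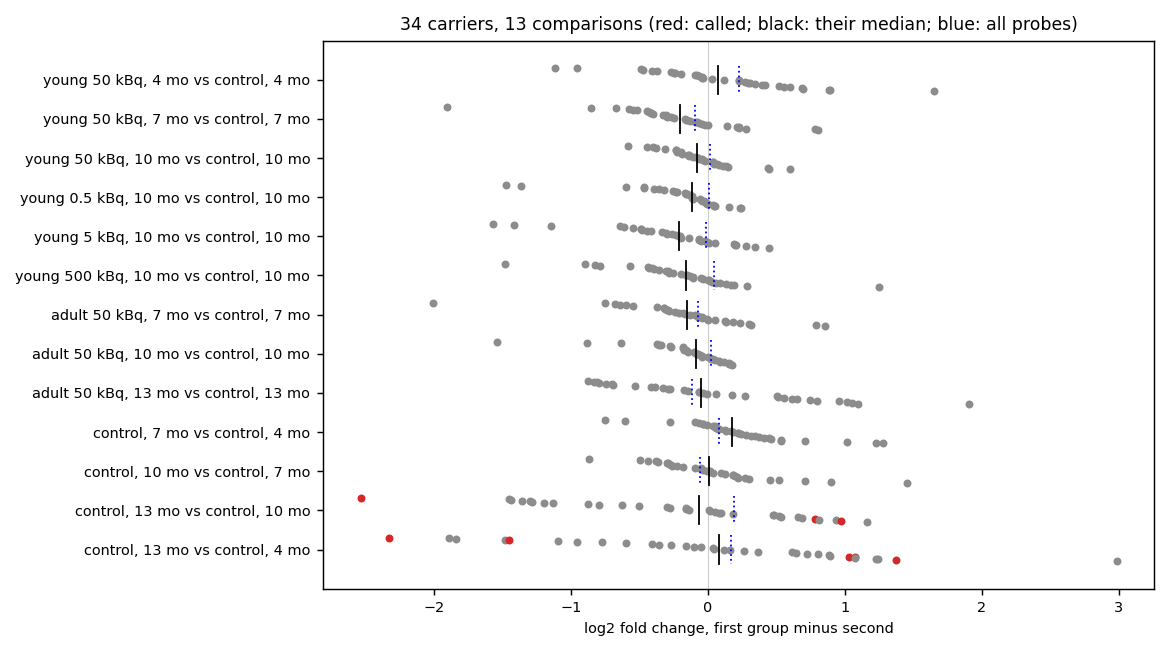
Log2 fold changes (horizontal axis) of the 34 tested carriers in the 9 comparisons with controls and the 4 comparisons between control ages (vertical axis), with 1 point per carrier, called carriers in red, the median of the carriers as a black line and that of all tested probes as a dotted blue line. Red points appear only where controls of 13 months are compared with those of 10 months (3 carriers) or 4 months (5 carriers), and Slc25a4 lies farthest to the left there.

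The ADP/ATP carriers were not called in young rats at 10 months at any of the 4 activities. Slc25a4 was at 5.51, 5.32, 5.35 and 5.35 in the controls and at 5.60, 5.77, 5.75 and 3.17 at 500 kBq. Of the 4 arrays at 500 kBq, 3 were above all controls and replicate 4, which also had a low muscle marker level of -2.13, was below them. The difference at 500 kBq was -0.31 ± 0.52 (SE, n = 4 and 4; limma adjusted p = 1), and at 0.5 kBq it was -0.01 ± 0.52. At 5 kBq Slc25a4 was at 4.49, 4.78 and 5.53, with 2 of 3 arrays below every control and a difference of -0.45 ± 0.56, and at 50 kBq the difference was -0.22 ± 0.52 (limma adjusted p = 1 for each). Slc25a5 was at 5.35, 5.27, 5.19 and 5.12 in the controls of 10 months and at 5.31, 5.44, 5.81 and 4.17 at 500 kBq, with overlapping groups. Its difference from the controls was -0.05 ± 0.35 there, -0.31 ± 0.38 after 5 kBq and 0.002 ± 0.35 after 0.5 kBq.

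At 5 kBq, 5 carriers had exposed arrays that did not overlap the controls, all lower, while 15.1% of all probes did not overlap and 6.81% were lower in this way. Slc25a42, the coenzyme A carrier, was at 0.15, -0.26 and -0.10 in exposed rats and at 1.36, 0.93, 0.73 and 1.30 in controls. All 3 exposed arrays were below the lowest control, with a difference of -1.15 ± 0.51 (limma adjusted p = 1, two-sided exact permutation p = 0.0286, the smallest that 3 against 4 arrays allow). The glutamate carrier Slc25a18 was at -6.28, -7.99 and -6.31 against -4.75, -6.04, -5.15 and -5.81 in controls, with a difference of -1.42 ± 0.68 and the same adjusted and exact permutation p, and 2 of the 3 exposed arrays were well above background. The other 3 were the mitoferrin Slc25a28, at -0.27, the pyrimidine nucleotide carrier Slc25a33, at -0.49, and Slc25a34, at -0.64. Marker levels of other cell types were separated in this group as well, the brown adipocyte level at -0.84 to -0.18 against 0.24 to 0.64 and the thyrocyte level at 0.64 to 0.72 against -0.24 to 0.54. With these levels as covariates, the difference of Slc25a42 was -0.76 and -0.99 (limma adjusted p = 1 for each).

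At the other activities at 10 months, few carriers were separated from the controls. At 500 kBq only Slc25a33 did not overlap (2.54% of all probes), at -1.70, -1.38, -1.65 and -1.39 against -1.33, -1.10, -1.18 and -0.78 in controls. All 4 exposed arrays were lower, with a difference of -0.43 ± 0.27 (limma adjusted p = 1, exact permutation p = 0.0286). None was separated at 0.5 kBq (1.06%) or 50 kBq (3.77%). The slope of Slc25a54 on log10 of the activity was 0.99 ± 0.31 log2 units per 10-fold (limma adjusted p = 1), but its signal was well above background on only 1, 0, 2 and 2 arrays of the groups, in order of rising activity. The ATP-Mg/phosphate carrier Slc25a25 had -0.38 ± 0.15, also with an adjusted p of 1. No carrier was called for its slope, and 0% of all probes were.

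In young rats given 50 kBq and killed at 4 months, the 4 carriers below 0.05 by their brightest probes were Slc25a34, Slc25a24, Slc25a28 and Slc25a46. Slc25a34 was at -0.98, -0.17, 0.01 and -1.32 in exposed rats and at -1.52, -2.83, -3.19 and -1.53 in controls. All exposed arrays were higher, by 1.65 ± 0.55 or 3.14-fold (limma adjusted p = 0.0387, exact permutation p = 0.0286). The ATP-Mg/phosphate carrier Slc25a24 was at 0.45, -0.86, 0.05 and 0.31 against 0.88, 1.33, 1.47 and 0.75. All exposed arrays were lower, by 1.12 ± 0.38 in size (log2 difference -1.12, limma adjusted p = 0.0428, exact permutation p = 0.0286). These 2 were the only carriers without overlap here, where 5.38% of all probes had none.

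Slc25a28, a mitochondrial iron importer, had a difference of 0.56 ± 0.16 (limma adjusted p = 0.0258), and Slc25a46, an outer membrane protein linked to fusion and fission of mitochondria, had 0.60 (limma adjusted p = 0.0262). The second probe of Slc25a28, A_64_P049426, went the other way, with -0.29 ± 0.28 (limma adjusted p = 0.459), and that of Slc25a24, A_44_P501503, had -0.60 (adjusted p = 0.437). Second probes below 0.05 were those of Slc25a44, with 1.18 ± 0.38 (limma adjusted p = 0.0368), and Slc25a5, with -0.92 ± 0.33 (0.0493). By the latter the dim array was at 0.285. Slc25a44 and Slc25a46 lie outside the naming rule and were chosen after their values were seen. Both Slc25a28 and Slc25a46 had overlapping arrays. Replicates 2 and 3 of the exposed group are the dim array and 1 of those low in thyrocyte markers. Without these arrays and replicate 2 of the controls of 7 months, the differences were 1.12 for Slc25a34 (limma adjusted p = 0.515), -0.73 for Slc25a24 (0.455), 0.35 for Slc25a28 (0.474) and 0.27 for Slc25a46 (0.526). Without replicate 1 of the exposed group alone, Slc25a10, Slc25a28 and Slc25a46 were called, and without replicate 4 the latter 2 were. Both fits keep the dim array, where Slc25a10 was at -3.86, and the array low in thyrocyte markers. The share of all probes called in these fits is not given, so the calls are not a result about the carriers. Markers of other cell types also moved with this group. The skeletal muscle level had a median of 1.31 in exposed rats and 0.08 in controls, and the cartilage level was 2.70 to 4.35 against -0.93 to 2.43, without overlap. With the muscle level as a covariate the differences were 1.29 for Slc25a34 (limma adjusted p = 0.0661) and -0.90 for Slc25a24 (0.0772), and the part of the cartilage level was not tested. This fit also keeps replicate 3 of the adult rats at 13 months, which lay far from the others in muscle level. Within the scan dates Slc25a34 differed by 1.52 and 1.78 and Slc25a24 by -0.93 and -1.32. Of the 2 exposed arrays on each date, 1 was an array that stands apart, replicate 3 or the dim replicate 2.

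In 3 further comparisons 1 carrier each was separated from the controls. In young rats given 50 kBq at 7 months it was Slc25a28 (7.77% of all probes), at 2.53, 2.93, 2.69 and 2.76 against 3.00, 3.44 and 2.99 in controls. All exposed arrays were lower, with a difference of -0.42 ± 0.17 (limma adjusted p = 0.654, exact permutation p = 0.0571). The difference was -0.27 when replicate 2 of the controls, the array low in thyrocyte markers, was left out. In adult rats at 7 months it was Slc25a39, a glutathione carrier (5.84%), with a difference of -0.29 (limma adjusted p = 1, exact permutation p = 0.0571). Its highest exposed array, at 1.912, was barely below the lowest control, at 1.915. Leaving out replicate 2 of the controls gave a difference of -0.20. In adult rats at 10 months it was the oxodicarboxylate carrier Slc25a21 (4.02%), at -4.43, -4.48, -4.25 and -4.48 against -4.14, -3.80, -4.19 and -4.09. All exposed arrays were lower, by -0.36 on the log2 scale (limma adjusted p = 1, exact permutation p = 0.0286).

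In the adult rats at 13 months, 10 carriers did not overlap their controls, as did 26% of all probes. Slc25a4 was at 5.33, 5.56, 2.93 and 5.20 in exposed rats and at 2.69, 2.51 and 3.33 in controls. Replicates 1, 2 and 4 were far above the controls and replicate 3, the array low in muscle markers, was among them. The difference was 1.91 ± 0.56 or 3.75-fold (limma adjusted p = 0.0415, exact permutation p = 0.0857). Slc25a5 was at 5.15, 5.15, 4.31 and 5.27 against 3.82, 3.88 and 3.92, with no overlap and a difference of 1.10 ± 0.38 (limma adjusted p = 0.0772, exact permutation p = 0.0571).

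Among the carriers lower than in the controls at 13 months, Slc25a16 and Slc25a23 had the smallest p. Slc25a23, an ATP-Mg/phosphate carrier regulated by calcium, was at 3.19, 3.21, 3.67 and 3.49 in exposed adults and at 4.15, 4.42 and 4.10 in controls. No array overlapped, and the difference was -0.83 ± 0.20 (limma adjusted p = 0.0139, exact permutation p = 0.0286). Slc25a16 was at 0.64, 0.66, 0.99 and 0.61 against 1.79, 1.71 and 1.08, also without overlap, with a difference of -0.80 ± 0.18 (limma adjusted p = 0.0124, exact permutation p = 0.0286). The largest decrease was that of the mitoferrin Slc25a37, with -0.88 ± 0.36 and no overlap (limma adjusted p = 0.141). Replicate 3, the array low in muscle markers, was at -2.394, barely below the lowest control at -2.389. The other exposed arrays were at -3.553 to -3.185. With Slc25a4, Slc25a16 and Slc25a23 were the 3 carriers with an adjusted p below 0.05 by their brightest probes. The carnitine/acylcarnitine carrier Slc25a20 was at 2.86, 2.5, 2.81 and 2.06 against 1.71, 1.81 and 1.01, higher in every exposed array by 1.05 ± 0.47 (limma adjusted p = 0.174).

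These values at 13 months turned on single arrays. Without adult replicate 3, Slc25a4 was 5.72-fold higher (2.52 ± 0.54, limma adjusted p = 0.00254), Slc25a16 differed by -0.89 (adjusted p = 0.00319) and Slc25a23 by -0.93 (adjusted p = 0.00363), and all 3 were called, against 3.61% of all probes. Without the dim array and those low in thyrocyte markers, these 3 and Slc25a5 were called, with the same differences and limma adjusted p from 0.000667 to 0.00645, against 8.98% of all probes. Slc25a16 was also called without replicate 3 of the controls of 13 months, without replicate 2, 3 or 4 of the young 50 kBq group at 4 months, without replicate 2 of the controls of 7 months or without replicate 4 of the young 500 kBq group, and Slc25a23 without the replicates 2 of these groups of 4 and 7 months. The share of all probes is not given for these fits, and it rose in those above. The calls can therefore not be read as particular to these carriers. The muscle marker level of the controls of 13 months was -2.83, -2.82 and -2.13, against a median of 0.38 in the exposed adults, and their thyrocyte level was 0.92 to 1.26 against 0.04 to 0.67. With the muscle level as a covariate the differences were 1.61 for Slc25a4 (limma adjusted p = 0.0132), -0.77 for Slc25a16 (0.011) and -0.78 for Slc25a23 (0.0113). With the brown adipocyte level they were 1.79 (limma adjusted p = 0.0776), -0.95 (0.00535) and -0.87 (0.0188), and with the thyrocyte level 1.65 (0.0298), -0.82 (0.00896) and -0.77 (0.0111), so that Slc25a16 was called in both of these fits. For the covariate fits the share of all probes is not given either. These fits keep replicate 3, whose muscle level was -8.55. The slope of Slc25a4 on the muscle level was 0.377 over all arrays. It was 0.904 without replicate 3 and the 3 arrays that stand apart. The differences with the muscle level as a covariate but without replicate 3 were not tested. Within the scan date that held 2 arrays of each group, the differences were 1.12 for Slc25a4, 0.86 for Slc25a5, -0.62 for Slc25a16 and -0.69 for Slc25a23. The exposed arrays of that date were replicate 1 and replicate 3, the array low in muscle markers.

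The 50 kBq effects were also compared between ages at injection and between times, by interaction terms in the same fit. No carrier was called in any of the 3, and 0% of all probes were. The smallest limma adjusted p was 0.0644, for Slc25a28, whose difference from controls after 3 months was 0.88 higher in young than in adult rats, against 0.19 by its second probe (adjusted p = 0.787). These comparisons hold the 3 arrays that stand apart. Over all 13 groups, no carrier passed a moderated F test at an adjusted p below 0.01, which 0.324% of all probes did. The lowest adjusted p of F were 0.0119 for Slc25a23, 0.0267 for Slc25a16 and 0.0322 for Slc25a34 (limma).

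**Figure D3:**
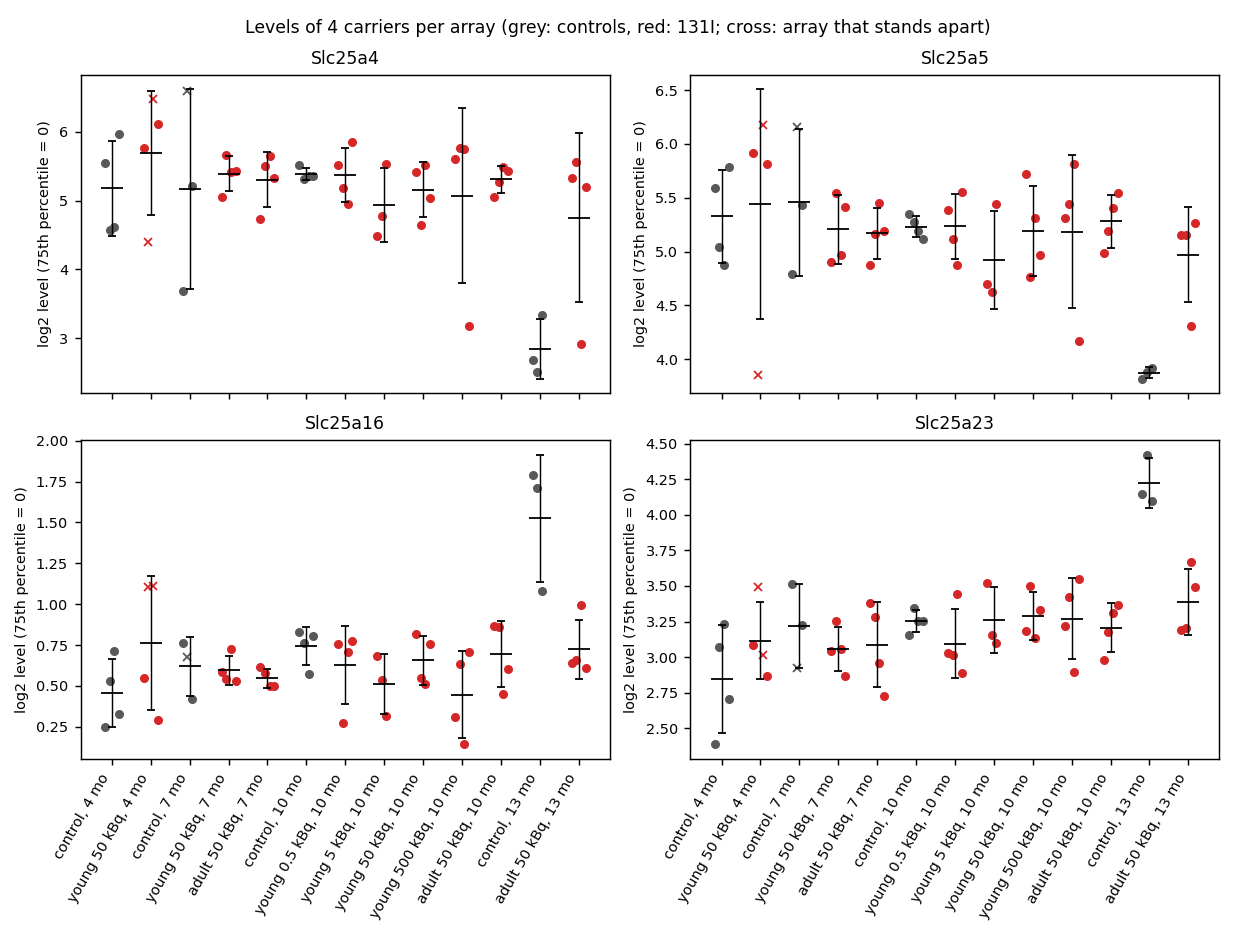
Log2 level of Slc25a4, Slc25a5, Slc25a16 and Slc25a23 (vertical axes) on each array of the 13 groups (horizontal axis), with controls in grey, 131I-exposed rats in red, arrays that stand apart as crosses and black bars for the mean ± SD. The controls of 13 months have the lowest mean of all groups for Slc25a4 and Slc25a5 (2.85 and 3.87) and the highest for Slc25a16 and Slc25a23 (1.52 and 4.22).

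Among the untreated controls, carriers were called only where the controls of 13 months were compared with younger ones. Slc25a4 was at 5.55, 4.57, 4.62 and 5.97 at 4 months, at 3.69, 6.60 and 5.21 at 7 months, at 5.51, 5.32, 5.35 and 5.35 at 10 months and at 2.69, 2.51 and 3.33 at 13 months. All 3 arrays at 13 months were below every control of another age. From 10 to 13 months Slc25a4 fell by 2.54 ± 0.56 on the log2 scale, or 5.81-fold (limma adjusted p = 0.00301), and against 4 months the difference was -2.33 ± 0.56, or 5.03-fold (limma adjusted p = 0.00559), with an exact permutation p of 0.0286 for each.

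Slc25a5 was also lowest at 13 months. It was at 5.59, 5.05, 4.88 and 5.79 at 4 months, at 4.79, 6.15 and 5.43 at 7 months and at 3.82, 3.88 and 3.92 at 13 months. The 13-month arrays were the lowest of the controls and lay within 0.10 of each other. The difference was -1.45 ± 0.38 or 2.74-fold against 4 months (limma adjusted p = 0.00876) and -1.36 ± 0.38 against 10 months, which was not called (limma adjusted p = 0.0118).

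Slc25a23 was the carrier with the lowest p. It was at 2.39, 3.07, 3.23 and 2.71 at 4 months, at 3.51, 2.93 and 3.22 at 7 months, at 3.16, 3.35, 3.25 and 3.26 at 10 months and at 4.15, 4.42 and 4.10 at 13 months. The lowest of these 3 exceeded the highest of the other 46 arrays of the series, 3.67. Slc25a23 was higher at 13 months by 0.97 ± 0.20 or 1.96-fold than at 10 months (limma adjusted p = 0.00174) and by 1.37 or 2.59-fold than at 4 months (limma adjusted p = 0.000138).

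Slc25a16 was at 0.25, 0.53, 0.71 and 0.33 at 4 months, at 0.76, 0.68 and 0.42 at 7 months, at 0.83, 0.76, 0.57 and 0.80 at 10 months and at 1.79, 1.71 and 1.08 at 13 months. It was higher at 13 months than in every younger control, by 0.78 ± 0.18 or 1.72-fold against 10 months (limma adjusted p = 0.00427) and 1.07 against 4 months (limma adjusted p = 0.000766). Slc25a14, known as uncoupling protein 5, was at 0.89, 0.87 and 1.28 at 13 months and at -0.28, 0.20, 0.29 and -0.28 at 4 months. These groups did not overlap, and the difference was 1.03 ± 0.26 or 2.04-fold (limma adjusted p = 0.00707).

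Of the 34 carriers, 3 were thus called from 10 to 13 months, against 6.51% of all probes, and 5 from 4 to 13 months, against 5.46%. None was called from 4 to 7 months (0.00791%) or from 7 to 10 months (0%). At a limma adjusted p below 0.05 the counts were 8 against 17.5% and 13 against 18.9%. Arrays did not overlap for 18 carriers (52.9%) from 10 to 13 months and for 13 (38.2%) from 4 to 13 months, against 44.1% and 34.3% of all probes. Among those below 0.05 and not called, the phosphate carrier Slc25a3 (-1.09 against 4 months) and the oxoglutarate/malate carrier Slc25a11 (-1.29 against 10 months) were lower, and the mitoferrin Slc25a37 (1.16 against 10 months) and the glutamate carrier Slc25a22 (1.24 against 4 months) were higher. These were chosen after their values were seen, except Slc25a22.

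Within the scan date that held both groups, the difference from 10 to 13 months was -2.38 for Slc25a4, 0.87 for Slc25a23 and 0.63 for Slc25a16. With the slide as a block it was -2.0, 0.71 and 0.69, and none of the 3 was called. Against 4 months the within-date differences were -2.05 and -2.78 for Slc25a4, -1.45 and -1.45 for Slc25a5, 1.39 and 1.45 for Slc25a23, 1.04 and 1.19 for Slc25a16 and 1.12 and 0.86 for Slc25a14. Leaving out 1 array ended most of these calls. Without replicate 1 or 2 of the controls of 13 months, only Slc25a23 against 4 months was still called, and Slc25a4 then differed from 10 months by -2.46 and -2.37. Without replicate 1 or 4 of the controls of 4 months, Slc25a14 (0.94 in both), Slc25a4 (-2.21 and -2.07) and Slc25a5 (-1.36 and -1.30) were no longer called against 4 months.

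The controls of 13 months also differed in the makeup of the sample. Their skeletal muscle level of -2.83 to -2.13 compares with 0.39 to 0.65 at 10 months and -0.47 to 0.67 at 4 months, and their thyrocyte level of 0.92 to 1.26 with -0.24 to 0.54 and -1.12 to 0.88. Each of the 12 muscle, 12 thyrocyte and 4 brown adipocyte markers with a probe was well above background on some array, and 11, 6 and 3 of them on all 49. The remaining brown adipocyte marker and the thyrocyte marker Slc26a4 were not well above background on most arrays. With the muscle level as a covariate, no carrier was called from 10 to 13 months (0.0356% of all probes), where the differences were -1.37 for Slc25a4 (limma adjusted p = 0.0695), 0.77 for Slc25a23 (0.0359) and 0.65 for Slc25a16. Against 4 months Slc25a16 (0.96, limma adjusted p = 0.00978) and Slc25a23 (1.2, adjusted p = 0.00314) were still called (0.178%). Both comparisons come from the fit that keeps replicate 3 of the adult rats at 13 months, whose muscle level was -8.55. They were not tested with this covariate and without that array. Age and the makeup of the 3 controls of 13 months cannot be told apart.

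Carriers were also related to the marker levels within groups, as a slope in log2 units of the carrier per log2 unit of the marker level. On the skeletal muscle level 2 carriers were called (8.65% of all probes). These were Slc25a4, the isoform of striated muscle, with 0.38 ± 0.06 (limma adjusted p = 8.05e-06), and Slc25a34, with 0.31 ± 0.07 (limma adjusted p = 0.00333). Replicate 3 of the adult rats at 13 months lay far from the others on this axis. Without it alone 10 carriers were called, and without it and the 3 arrays that stand apart 12 were called (30%), 6 in each direction, with slopes of 0.90 for Slc25a4, 0.71 for Slc25a34 and 0.50 for Slc25a5. Without replicate 4 of the young 500 kBq group at 10 months only Slc25a4 was called, Slc25a34 having a slope of 0.26, and without replicate 2 of the young 50 kBq group at 4 months 8 were. The share of all probes is not given for the counts with 1 array left out.

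On the brown adipocyte level, whose 4 markers include the uncoupling protein Ucp1, 4 carriers were called (2.6%), all with positive slopes. They included the citrate carrier Slc25a1 with 0.63 ± 0.11 (limma adjusted p = 7.16e-05), Slc25a20 with 0.61 ± 0.09 (2.98e-06) and Slc25a35, without a settled substrate, with 0.57 ± 0.06 (1.56e-08). These carriers varied within groups. In young rats given 0.5 kBq, for example, Slc25a20 was at 3.44, 1.28, 2.02 and 3.05, with replicate 1 the highest and replicate 2 the lowest. Without the 4 arrays named above 6 carriers were called (4.04%).

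On the thyrocyte level 18 carriers were called (27.1%), 7 with positive (14%) and 11 with negative slopes (13.1%). Slc25a53 (0.50 ± 0.15, limma adjusted p = 0.00597), Slc25a21 (0.43 ± 0.04, 1.38e-10) and Slc25a22 (0.25 ± 0.05, 0.00015) had the largest positive slopes. Slc25a4 (-0.33 ± 0.08, limma adjusted p = 0.000538), Slc25a42 (-0.30) and Slc25a25 (-0.28) had the largest negative ones. On the arrays low in thyrocyte markers, Slc25a21 was at -5.97 and -7.14, the lowest of their groups, and Slc25a25 was at 4.64 and 5.39. Without the arrays that stand apart, 18 were called (28.6%), with steeper slopes for Slc25a21 (0.66), Slc25a22 (0.69), Slc25a4 (-0.75) and Slc25a42 (-0.78), but Slc25a25 (-0.13, limma adjusted p = 0.625) and Slc25a53 (1.15, adjusted p = 0.0144) were not. Without replicate 2 of the controls of 7 months alone, 11 were called, a count given without the share of all probes.

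**Figure D4:**
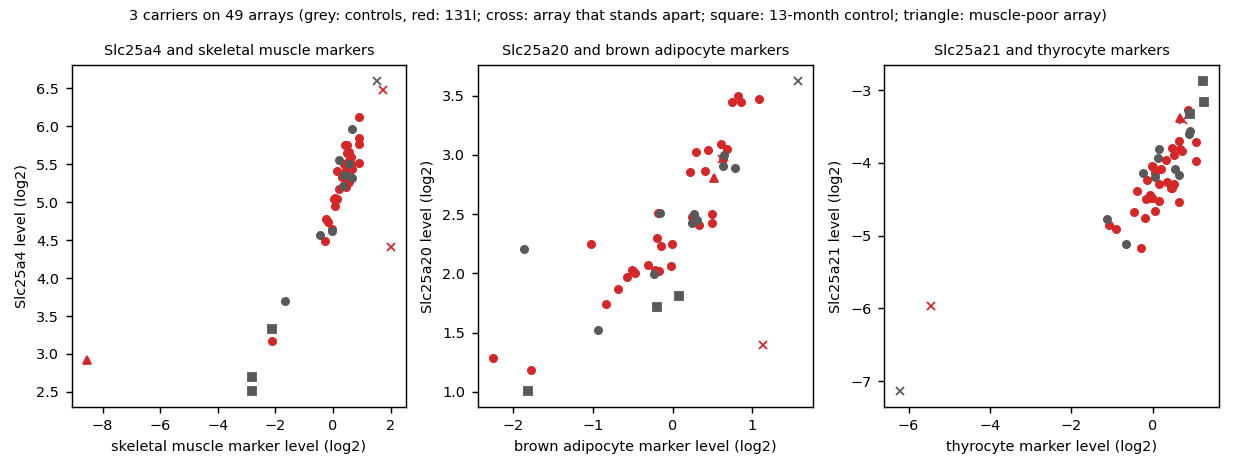
Log2 level of Slc25a4, Slc25a20 and Slc25a21 (vertical axes) against the skeletal muscle, brown adipocyte and thyrocyte marker levels (horizontal axes, log2 relative to the mean of all arrays) on the 49 arrays, with controls in grey and exposed rats in red. The triangle, replicate 3 of the adult rats at 13 months, lies at a muscle level of -8.55 with Slc25a4 at 2.93, and the squares, the controls of 13 months, lie at -2.83 to -2.13 with Slc25a4 at 2.51 to 3.33.

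The probes of a gene gave different answers for some carriers. Of the 38 members, 10 had a second probe, and the pairs were compared across the 48 arrays without the dim array, together with both Slc25a5 probes against Slc25a4, in 12 relations. For Slc25a39, Slc25a24 and Slc25a42 the 2 probes had a Pearson r of 0.95, 0.93 and 0.81 and a Spearman's rho of 0.95, 0.92 and 0.77 (permutation p adjusted over the 12 relations 1.71e-05 for each). For Slc25a28 and Slc25a33 r was 0.67 and 0.66. For Slc25a18, Slc25a16 and Slc25a44 r was 0.09, 0.04 and 0.03 (adjusted permutation p = 0.63, 0.83 and 0.83) and rho 0.18, 0.42 and 0.11, of which that of Slc25a16 passed (adjusted permutation p = 0.00441). The second probe of Slc25a18 was well above background on 2 arrays. The brightest probe of Slc25a5, A_64_P313659, and its second probe, A_44_P175954, had an r of -0.23 (permutation p = 0.109, adjusted over the 12 relations 0.146) and a Spearman's rho of -0.17 (p = 0.25). Without the 2 arrays farthest from the median r was -0.33, and within the 3 scan dates it was -0.35, -0.41 and 0.70. The sign thus differed between the dates.

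The brightest probe of Slc25a5 instead followed Slc25a4, with r = 0.93 (permutation p = 1e-05, the smallest that 100000 permutations can give, adjusted 1.71e-05) and rho = 0.91. The value was 0.91 without the 2 farthest arrays, 0.89 without the controls of 13 months, 0.90 for deviations from group means, and 0.93, 0.95 and 0.93 within the scan dates. The second probe had r = -0.26 with Slc25a4 (permutation p = 0.0767, adjusted 0.115; rho = -0.28). Here r was -0.46 without the controls of 13 months and -0.39 for deviations from group means. Within the scan dates it was -0.35, -0.43 and 0.60, so the sign differed between the dates. The second probe was at 2.75 to 2.97 in the controls of 13 months and at 2.05 to 3.62 at 4 months, overlapping, with a difference of 0.01 ± 0.36 (limma adjusted p = 0.986). Slc25a4 and Slc25a5 are close paralogs, and the files used here give no probe sequences, so whether a probe also binds the transcript of the other gene was not tested.

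The calls of Slc25a16 and Slc25a42 depended on the probe as well. The second probe of Slc25a16, A_42_P542773, differed by -0.38 ± 0.37 from 10 to 13 months (limma adjusted p = 0.504), opposite to the brightest, and by 0.09 against 4 months (adjusted p = 0.894). In adult rats at 13 months against their controls it differed by 0.14 (limma adjusted p = 0.875), again opposite in sign to the brightest probe. For Slc25a5 the second probe gave 0.42 there (limma adjusted p = 0.54). The second probe of Slc25a42, A_44_P269666, was called lower at 13 months, by -1.98 ± 0.40 against 10 months (limma adjusted p = 0.00183) and -1.68 against 4 months (adjusted p = 0.00548). It was -0.75 at 5 kBq (limma adjusted p = 1). In adult rats at 13 months against their controls it was higher by 1.76 ± 0.40 (limma adjusted p = 0.0117), which was not called. The brightest probe of Slc25a42 differed by -1.46 against 10 months and by -0.96 against 4 months and was not called.

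**Figure D5:**
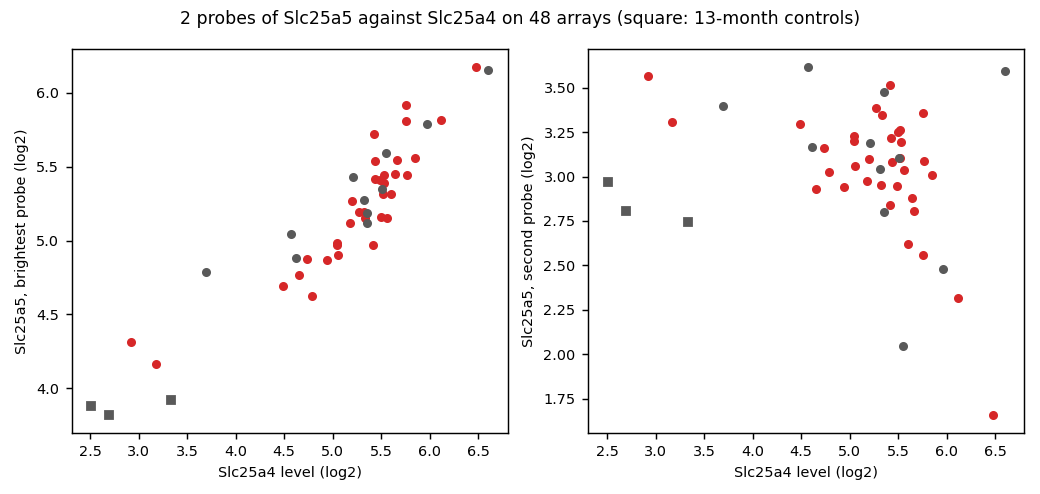
Log2 level of the brightest (left) and second (right) probe of Slc25a5 (vertical axes) against that of Slc25a4 (horizontal axes) on 48 arrays, with controls in grey, exposed rats in red and controls of 13 months as squares. Over all 48 arrays the brightest probe rises with Slc25a4 (r = 0.93) and the second does not (r = -0.26).

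Other genes of carrier transport and import were listed beside the family. They were 5 SLC25 genes under other symbols, 11 inner membrane carriers of other families and 10 genes of outer membrane channels and carrier import, and none was called in the 9 comparisons. The uncoupling proteins Ucp1, Ucp2 and Ucp3 were well above background on all 49 arrays, with levels from -0.52 to 7.34, -3.23 to 1.28 and 0.20 to 4.93. Ucp3, the isoform of skeletal muscle, was at 3.65, 3.44, 0.44 and 3.66 in adult rats at 13 months and at 0.29, 0.20 and 0.42 in controls. Replicate 3, the array low in muscle markers, was close to the controls, and the difference was 2.5 ± 0.71 or 5.64-fold (limma adjusted p = 0.0361). Of the 10 outer membrane and import genes, 9 were higher in this comparison, with a median of 0.38, and 9 in young rats given 50 kBq at 4 months, with 0.43, against medians of -0.118 and 0.227 for all probes. At 5 kBq and in young rats given 50 kBq at 7 months, all 10 were lower, with medians of -0.31 and -0.17, against -0.016 and -0.097 for all probes.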

How the data were processed

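The authors deposited 1 Agilent Feature Extraction file per array, with the processed signal as an intensity after background subtraction at each spot by the scanner software and without scaling between arrays. The deposited files also hold per-spot marks in other units, set to 0 or 1, for a signal well above background, saturation and outliers. The submitters' processing notes name Partek, and no source used here gives the authors' normalization. The authors further deposited a table of fold changes from their own comparisons, which was not used.

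Control spots and outlier spots were left out, log2 signals were averaged per probe and then centred on the array's 75th percentile over probes. Of 30367 probes, 17998 were matched to a symbol through RefSeq, and those well above background on at least 3 arrays were tested. One limma 3.58.1 fit in R 4.3.3 held 1 mean per group over all 49 arrays, with 9 exposure contrasts, 4 age contrasts, a slope and 3 interactions, Benjamini-Hochberg adjusted over all probes. Scripts were tested on simulated data. For single carriers differences of means were also tested by exact permutation, two-sided. Marker levels are means over a list of each probe's level minus its mean over the arrays. Figures were drawn with Python 3.11.15 and matplotlib 3.10.9. The members and lists were chosen with earlier results of these data known. Named carriers were the ADP/ATP carriers, those called, the 2 largest non-overlapping per exposure contrast, the 5 with the largest SD and span, and the largest marker slopes. Carriers outside that rule, such as Slc25a17 and Slc25a35, were picked with their values known. Values of 1 tested carrier are counted in the totals and not reported here. The number of arrays limits the precision.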

Additional observations from a re-analysis of the deposited data

Results flagged for a closer look

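Of 200 groups of 4 arrays over the 20 named carriers, 13 (6.5%) held a single array far from the other 3, where chance gives about 1 in 20. Of these, 4 were on replicate 3 of the adult rats at 13 months, the array low in muscle markers. There Slc25a4 was at 2.93 against 5.20 to 5.56 in the others, Slc25a5 at 4.31 against 5.15 to 5.27, Slc25a16 at 0.99 against 0.61 to 0.66 and Slc25a18 at -7.37 against -5.90 to -5.77. A further 3 were on the dim replicate 2 of the young 50 kBq group at 4 months, with Slc25a5 at 3.85 against 5.82 to 6.18, Slc25a42 at -1.63 against 0.71 to 0.83 and Slc25a33 at -2.55 against -1.26 to -1.03.

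Replicate 1 of the same group had Slc25a1 at 1.87 against -0.16 to 0.03. Slc25a4 was at 3.17 against 5.60 to 5.77 on replicate 4 of the young 500 kBq group, whose muscle marker level was also low. At 0.5 kBq, Slc25a16 was at 0.27 on replicate 2 against 0.71 to 0.78, Slc25a28 at 2.95 on replicate 4 against 2.73 to 2.75 and Slc25a54 at -5.18 on replicate 3 against -8.73 to -8.33. In adult rats at 10 months, Slc25a20 was at 2.30 on replicate 3 against 3.02 to 3.09.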

How the results depend on the processing

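For the carriers named by the rule, 1129 alternative values of their differences and slopes were computed, of which 1051 stayed on the same side of the threshold, 74 lost the call, 4 gained it and 0 changed sign. The count of 0 carriers called in exposed groups became 1 with the filter on every array of a group, 1 with the brown adipocyte and 1 with the thyrocyte level as a covariate (Slc25a16 in adult rats at 13 months each time), 4 without the arrays that stand apart, 7 at an adjusted p under 0.05 and 14 with array weights, and lay between 0 and 3 with 1 array left out. For the other carrier and import genes, 0 became 3, 3 and 11 under the last 3 settings and 0 to 1 with 1 array left out. The count of slopes on activity was 0 throughout, and with 1 array left out it was 0 to 0. Interactions went from 0 to 8 with array weights and stayed at 0 to 0 with 1 array left out. The counts in this section are given without the share of all probes under the same setting. They are therefore not a result about the carriers.

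The 8 age calls became 5 with normexp background correction, 2 with the muscle level as a covariate, 21 at an adjusted p under 0.05, 21 without the arrays that stand apart and 32 with array weights, and 1 to 14 with 1 array left out, the 14 without the dim array and the 1 without replicate 1 or 2 of the controls of 13 months. With probes averaged, Slc25a16 (0.20 and 0.58) and Slc25a5 (-0.72) lost their call. The F test over groups, 0 at first, gave 1 (Slc25a23) with the slide block, the scan block or the stricter filter, 3 at 0.05, 2 without the arrays that stand apart (Slc25a16 and Slc25a23), 20 with array weights and 0 to 2 with 1 array left out.

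Slopes on the muscle level numbered 2, and 1 with quantile normalization, 4 with the slide as a block, 12 with array weights, 9 at 0.05, 7 without the arrays that stand apart, 10 without the 2 farthest arrays, 12 without the 4 arrays and 1 to 10 with 1 array left out. Those on the brown adipocyte level numbered 4, and 13 with array weights, 9 with the markers in even places and 4 to 6 with 1 array left out. Those on the thyrocyte level numbered 18, and 6 with the slide as a block, 10 with the scan date and 11 to 20 with 1 array left out. The cause of these shifts was not tested.

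Replicate numbers are shared between groups, but of 32 same-number pairs only 10 had deviations correlated over 0.1, with a range from -0.519 to 0.494, and in young rats given 50 kBq at 7 months alone all 3 were over 0.1 (0.33, 0.319 and 0.137). There, fitted with these 2 groups alone, the replicate block left 0 carriers called (limma unadjusted p below 0.05 for 3, against 0 without the block), with -0.43 for Slc25a28. In the other comparisons the samples share only a number. With the replicate block the 8 age calls were 5, and Slc25a14 (1.02), Slc25a4 (-2.32) and Slc25a5 (-1.43) lost theirs against 4 months. Signal over background limits Slc25a18, Slc25a53 and Slc25a54, which were dim on many arrays. Scaling by the percentile over spots, leaving out the arrays that stand apart, also with adult replicate 3, and marker covariates for the age comparisons and the block at 7 months were chosen after seeing the data. Normexp used median spot signals.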
